A study of Mus musculus with 10 samples.

Results

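Cell cycle and DNA replication genes were followed in liver sinusoidal endothelial cells (LSEC), the fenestrated endothelium that lines the sinusoids of the liver, of mice that lack Gata4 in these cells and of control mice. The set of 45 genes was listed by symbol for the known roles of the genes in G1/S passage, CDK inhibition, DNA replication and mitosis. No rule on their values was used, but earlier results of these data were known when the genes were chosen. Of the 45 genes, 44 were measured among 24704 named genes, and 1 cyclin gene of the list was not analysed here. The labels give 5 Gata4-LSEC-KO samples and 5 control samples, each a pool of LSEC from 3 mice and each hybridised to 1 Affymetrix array. The Gata4-LSEC-KO mice carried the Cre transgene Clec4g-icre, which is driven by control sequences of a gene of the sinusoidal endothelium, together with a floxed Gata4 gene. Controls were siblings labelled as wild type. Which of the transgene and the floxed alleles they carried, and the age and sex of either group, are not stated in the labels. Cells were freed by collagenase perfusion, separated on a Nycodenz gradient and selected with bead-bound antibody to CD146, which Mcam encodes. Values are the deposited RMA values on a log2 scale, so a difference of 1 is a 2-fold difference, and all differences are Gata4-LSEC-KO minus control.

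D-type cyclins with CDK4 and CDK6 start the passage through G1 by phosphorylating the retinoblastoma protein, which frees E2F factors, and cyclin E with CDK2 completes it. The MCM helicase, the PCNA clamp and the enzymes that make deoxynucleotides then serve DNA replication, while cyclins A and B, CDK1, Polo and Aurora kinases and the spindle and kinetochore proteins carry cells through mitosis. The INK4 and CIP/KIP inhibitors hold these kinases in check. Adult LSEC are mostly quiescent and enter the cycle during liver regeneration. Genes of the late phases share promoter elements: the CHR element and CCAAT boxes in the promoters of G2/M genes, and E2F sites in those of G1/S genes.

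Gata4-LSEC-KO arrays gave higher values for 4 of the 44 members and lower values for none at an adjusted p under 0.05. These were Cdkn1a, Cdk6, Ccnd1 and Ccna2: 1 CDK inhibitor, 1 cyclin-dependent kinase and 1 cyclin of the G1/S engine, and 1 cyclin that acts from S phase to mitosis. As a share of the members, 9.09% were called higher, against 1.30% of all genes in that direction, while 0 members were called lower, against 0.846% of all genes. In either direction 2.14% of all genes were called. The mitotic genes lay above control as a group of values, with a median difference of 0.58 over 19 genes, but only Ccna2 of these passed the adjusted threshold. The 10 replication genes had a median difference of 0.14, and none passed. The median over the 44 members was 0.34, beside -0.02 over all genes, and 37 members (84.1%) lay above 0, beside 44.8% of all genes.

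The promoters of 4 mitotic members are shown because most mitotic genes lay above control together, and because the values of Plk1, Ccnb2, Mki67 and Top2a are described below. The sequences are RefSeq windows of the mouse assembly GRCm38.p6, each from 250 bases before to 50 bases after the annotated start, written 5′ to 3′ on the strand of the gene. Capitals mark the CHR letters TTTGAA, the CCAAT box letters CCAAT and any E2F word, each searched on both strands. The windows lie at chr9:70421505-70421804 on the minus strand (Ccnb2), chr7:122159185-122159484 on the plus strand (Plk1), chr7:135716330-135716629 on the minus strand (Mki67) and chr11:99024140-99024439 on the minus strand (Top2a).
Ccnb2: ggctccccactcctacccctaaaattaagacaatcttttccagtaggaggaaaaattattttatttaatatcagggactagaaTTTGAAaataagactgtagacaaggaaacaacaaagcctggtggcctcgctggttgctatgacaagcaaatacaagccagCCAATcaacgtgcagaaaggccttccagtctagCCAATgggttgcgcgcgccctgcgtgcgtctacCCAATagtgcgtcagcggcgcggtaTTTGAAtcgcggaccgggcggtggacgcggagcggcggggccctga
Plk1: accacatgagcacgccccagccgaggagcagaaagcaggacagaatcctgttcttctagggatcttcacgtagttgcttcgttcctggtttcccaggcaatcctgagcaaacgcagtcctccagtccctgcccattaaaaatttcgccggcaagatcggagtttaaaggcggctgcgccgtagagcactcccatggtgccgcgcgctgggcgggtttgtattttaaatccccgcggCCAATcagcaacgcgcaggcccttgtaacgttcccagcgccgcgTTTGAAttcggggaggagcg
Mki67: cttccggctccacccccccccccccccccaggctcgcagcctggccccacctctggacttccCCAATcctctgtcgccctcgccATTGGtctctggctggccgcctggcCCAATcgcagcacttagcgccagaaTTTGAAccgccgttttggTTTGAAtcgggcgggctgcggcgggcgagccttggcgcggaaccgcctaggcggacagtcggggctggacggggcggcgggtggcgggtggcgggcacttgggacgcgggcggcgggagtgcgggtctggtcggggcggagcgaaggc
Top2a: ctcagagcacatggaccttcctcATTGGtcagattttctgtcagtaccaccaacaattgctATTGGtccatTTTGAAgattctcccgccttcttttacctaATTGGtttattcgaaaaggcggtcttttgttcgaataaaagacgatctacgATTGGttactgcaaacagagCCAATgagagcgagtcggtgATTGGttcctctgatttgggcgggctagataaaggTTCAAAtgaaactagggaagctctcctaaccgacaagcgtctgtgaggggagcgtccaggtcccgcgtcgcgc

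Positions of a match are those of its first letter in the printed sequence, counted from the annotated start. The Plk1 window holds 1 TTTGAA at position 30 and 1 CCAAT at position -14. In the Ccnb2 window there are 3 CCAAT boxes upstream of a TTTGAA at position 4, and another TTTGAA lies further upstream at position -167. Top2a has the most CCAAT letters of the 4 windows, with 6 over both strands. Windows were found for 35 of the 44 members, 15 of them mitotic genes. TTTGAA stood in the windows of 11 of the 15 mitotic genes (73.3%) and of 2 of the other 20 members (10%), beside 17.9% of all 32851 windows. CCAAT stood in 13 of the 15 mitotic genes (86.7%) and 13 of the other 20 members (65%), beside 37.4% of all windows. The E2F words TTTCCCGC, TTTCGCGC, TTTGCCGC and TTTGGCGC, searched on both strands, stood in 1 of the 15 mitotic genes and in 6 of the other 20 (30%), beside 2.26% of all windows. Those 6 were Mcm3, Mcm5, Mcm6, Mcm7, Cdk2 and Cdkn2a. An E-box with the letters CACGTG, the palindrome that MYC and related factors bind, stood in Cdk4, Cdk6, Cdkn2c and Tyms, and in 7.15% of all windows. The GATA letters AGATAA or TGATAA were found in 1 member, Top2a, at position -32, and in 18.6% of all windows. In Mcm7 a CCAAT overlapped an E2F word, and no other matches of different motifs overlapped in the members' windows. These matches are letters in a window and are not evidence that a factor binds there. Whether they go with the differences of the genes was not tested.

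**Figure D1:**
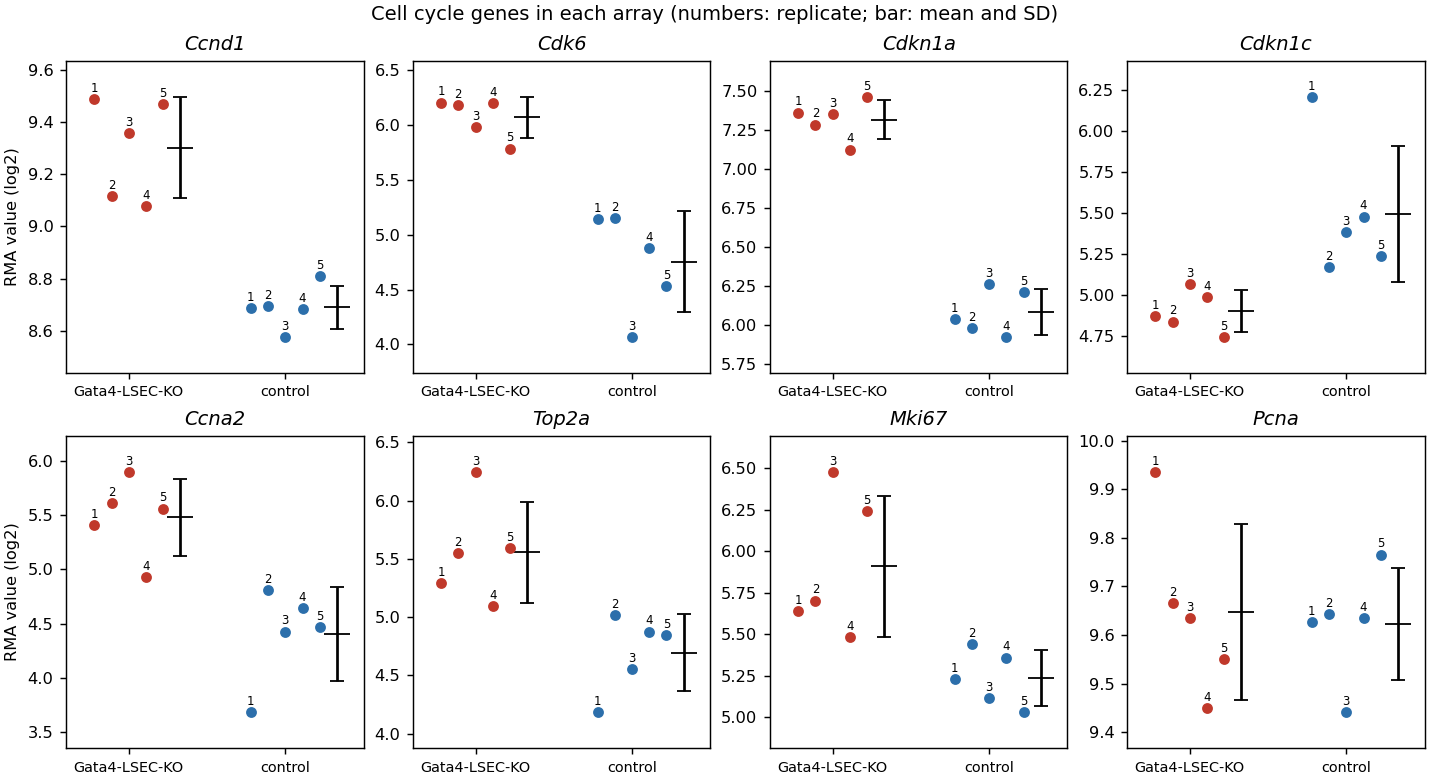
RMA value (log2, vertical axis) of 8 members in each array, with Gata4-LSEC-KO arrays on the left and control arrays on the right of each panel. Numbers are replicates and bars are mean and SD (n = 5). Each axis has its own range and does not start at 0. All but Pcna separate the groups completely, with Cdkn1c lower and the others higher in Gata4-LSEC-KO arrays.

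In the G1/S engine, 2 of 9 members rose. Cdk6, a kinase partner of the D-type cyclins, had 6.21, 6.18, 5.99, 6.20 and 5.79 in Gata4-LSEC-KO arrays 1 to 5, against 5.15, 5.16, 4.07, 4.88 and 4.53 in control arrays 1 to 5. The lowest Gata4-LSEC-KO value lay above the highest control value, and control replicates 3 and 5 were the lowest. It rose by 1.32 ± 0.20 on the log2 scale (SE), or 2.49-fold, with an adjusted p of 0.00586 by limma with Benjamini-Hochberg adjustment over all genes. Ccnd1 encodes cyclin D1, the D-type cyclin that responds to growth signals. It had 9.49, 9.12, 9.36, 9.08 and 9.47 in Gata4-LSEC-KO arrays, against 8.69, 8.70, 8.58, 8.68 and 8.81 in control arrays. The groups did not overlap, and the control values lay close together (8.69 ± 0.08, SD, n = 5) while those of Gata4-LSEC-KO arrays spread more widely (9.30 ± 0.19). Ccnd1 rose by 0.61 ± 0.11, or 1.53-fold, with an adjusted p of 0.0164 in limma.

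The other members of the G1/S engine did not pass. Ccne2, which encodes a cyclin E that activates CDK2, had 3.99, 3.48, 3.64, 3.36 and 3.01 in Gata4-LSEC-KO arrays, against 2.60, 3.43, 2.61, 3.16 and 2.91 in control arrays. The groups overlapped, with Gata4-LSEC-KO replicate 5 below control replicates 2 and 4, and the difference was 0.55 ± 0.20 with an adjusted p of 0.239 in limma. Ccne1, the gene of the other cyclin E, differed by -0.19. The remaining D-type cyclins Ccnd2 and Ccnd3 differed by 0.15 and -0.01, Cdk4, the other partner of the D-type cyclins, by 0.19, Cdk2 by 0.02, and E2f1, an activating E2F factor, by 0.09. The median of the 9 genes was 0.15, with 7 above 0 and 2 called. The adjusted test picked out Cdk6 but not Cdk4, and Ccnd1 but not Ccnd2 or Ccnd3. Whether these differences differ from each other was not tested. Ccne1 and Ccne2 averaged below the array median of 3.71.

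Of the 6 CDK inhibitors, Cdkn1a rose, Cdkn1c lay lower without passing the adjusted threshold, and the rest overlapped between groups. Cdkn1a encodes p21, an inhibitor of cyclin-CDK complexes and a classical target of p53. It had 7.36, 7.29, 7.35, 7.12 and 7.46 in Gata4-LSEC-KO arrays, against 6.04, 5.98, 6.26, 5.93 and 6.21 in control arrays. The gap between the groups was wider than the range within either. Cdkn1a rose by 1.23 ± 0.11, or 2.35-fold, and its adjusted p of 0.000191 was the smallest of the 44 members. Cdkn1c encodes p57, the CIP/KIP inhibitor from an imprinted locus. It had 4.87, 4.84, 5.07, 4.99 and 4.75 in Gata4-LSEC-KO arrays, against 6.21, 5.17, 5.38, 5.48 and 5.24 in control arrays. The groups did not overlap, and control replicate 1 stood well above the other 4 control arrays. The difference was -0.59 ± 0.18 with an adjusted p of 0.140 in limma. It was -0.42 without control replicate 1, with an adjusted p of 0.0704.

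Cdkn2a, the locus of p16 and p19ARF, had 5.29, 5.74, 5.41, 5.42 and 5.53 in Gata4-LSEC-KO arrays, against 5.54, 4.87, 5.27, 5.13 and 4.71 in control arrays. The groups overlapped through control replicate 1, which was above 4 of the 5 Gata4-LSEC-KO arrays, and the difference was 0.38 ± 0.16 with an adjusted p of 0.325 in limma. The array value does not tell the 2 products of the locus apart. The INK4 genes Cdkn2b and Cdkn2c differed by -0.04 and 0.07, and Cdkn1b, the gene of p27, by -0.04. Cdkn2b was 6.84 in control replicate 1, against 4.90 to 5.34 in the other control arrays, and its difference was 0.32 without that array. The median of the 6 inhibitors was 0.02 with all arrays and 0.19 without control replicate 1.

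**Figure D2:**
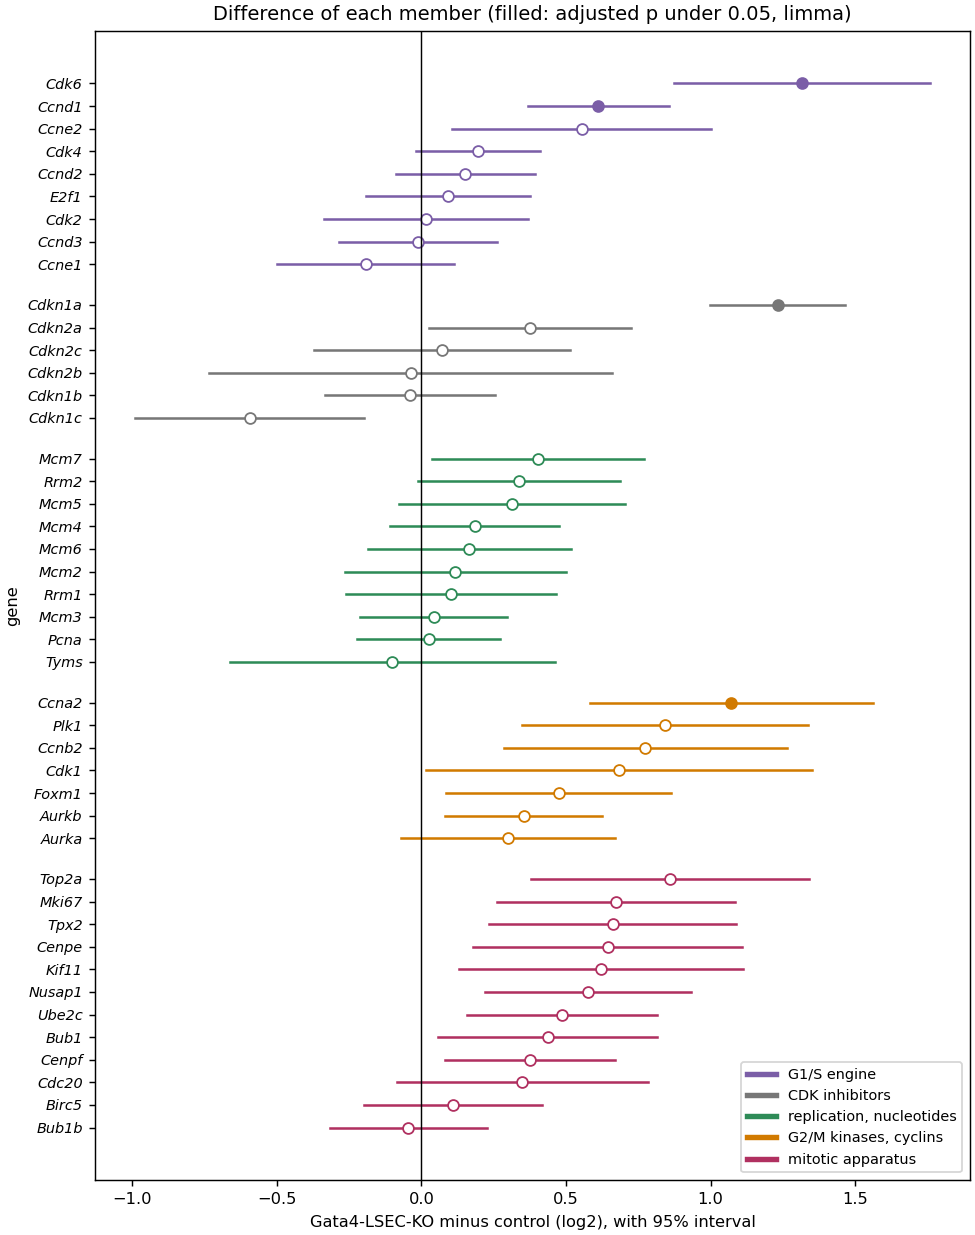
Difference of each of the 44 measured members (Gata4-LSEC-KO minus control, log2, horizontal axis) with its 95% interval from limma, grouped by role and sorted within each role. Filled points passed the adjusted threshold of 0.05. Cdk6, Ccnd1, Cdkn1a and Ccna2 are filled, none of the 10 replication genes is filled, and 18 of the 19 mitotic genes lie above 0.

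The genes of DNA replication and nucleotide synthesis did not pass the adjusted test in either direction: limma called 0 of 10 at an adjusted p under 0.05 and 1, Mcm7, at an unadjusted p under 0.05. Mcm7, a subunit of the MCM2-7 helicase, had 5.13, 5.61, 5.58, 5.57 and 5.62 in Gata4-LSEC-KO arrays, against 5.48, 5.45, 4.83, 4.89 and 4.84 in control arrays. The groups overlapped because Gata4-LSEC-KO replicate 1 was low and control replicates 1 and 2 were high. Its difference was 0.40 ± 0.17 with an adjusted p of 0.307 in limma. Rrm2, the inducible subunit of ribonucleotide reductase, had 3.99, 3.88, 4.40, 4.09 and 4.61 in Gata4-LSEC-KO arrays, against 3.73, 3.85, 4.14, 3.58 and 3.99 in control arrays. The values overlapped, and the difference was 0.34 ± 0.16 with an adjusted p of 0.391. Mcm5, another helicase subunit, had 5.35, 5.60, 5.83, 5.64 and 5.94 in Gata4-LSEC-KO arrays, against 4.89, 5.75, 5.10, 5.41 and 5.66 in control arrays. These groups overlapped too, with a difference of 0.31 ± 0.18 and an adjusted p of 0.505.

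Pcna, the sliding clamp of the replicative polymerases, had 9.94, 9.67, 9.63, 9.45 and 9.55 in Gata4-LSEC-KO arrays, against 9.63, 9.64, 9.44, 9.63 and 9.77 in control arrays. The groups overlapped, and Gata4-LSEC-KO replicate 1 was the highest array. The difference of 0.02 ± 0.11 had a 95% interval of -0.22 to 0.27, so a small change in either direction remains possible. The other helicase subunits Mcm2, Mcm3, Mcm4 and Mcm6 differed by 0.12, 0.04, 0.18 and 0.17. Rrm1, the large subunit of ribonucleotide reductase, differed by 0.10, and Tyms, the thymidylate synthase, by -0.10. Although 9 of the 10 differences were above 0, Gata4-LSEC-KO replicate 5 was the highest of its group in 9 of the 10 genes. The mean of the 10 genes was 6.05, 6.02, 6.27, 6.03 and 6.46 in Gata4-LSEC-KO arrays, against 5.93, 6.12, 5.94, 5.96 and 6.08 in control arrays. Gata4-LSEC-KO replicates 3 and 5 lay above all control arrays, and replicates 1, 2 and 4 lay among them.

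The kinases and cyclins of G2 and M had a median difference of 0.68 over 7 measured genes, all of which lay above 0. Limma called 1 of them higher, Ccna2, and 6 at an unadjusted p under 0.05. Ccna2, the cyclin A of somatic cells, had 5.41, 5.61, 5.90, 4.93 and 5.56 in Gata4-LSEC-KO arrays, against 3.69, 4.81, 4.43, 4.64 and 4.47 in control arrays. The groups did not overlap, although Gata4-LSEC-KO replicate 4 lay only a little above control replicate 2. Ccna2 rose by 1.07 ± 0.22, or 2.10-fold, with an adjusted p of 0.0315 in limma. Its difference was 0.89 without control replicate 1, the lowest array, with an adjusted p of 0.0197. The call was lost when any 1 of Gata4-LSEC-KO replicates 1, 2, 3 or 5 or control replicates 3, 4 or 5 was left out, with adjusted p up to 0.0856.

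Plk1, the Polo kinase of mitotic entry and spindle assembly, had 4.82, 5.39, 6.09, 5.04 and 5.43 in Gata4-LSEC-KO arrays, against 4.95, 4.42, 4.14, 4.61 and 4.46 in control arrays. Only control replicate 1 reached into the range of Gata4-LSEC-KO arrays, where it lay above replicate 1. The difference was 0.84 ± 0.23, or 1.79-fold, with an adjusted p of 0.0912 in limma, and 0.95 with an adjusted p of 0.0439 without control replicate 1. Ccnb2, a B-type cyclin that activates CDK1, had 4.87, 5.11, 5.45, 4.74 and 5.22 in Gata4-LSEC-KO arrays, against 3.98, 4.72, 3.70, 4.84 and 4.28 in control arrays. The groups met only through control replicate 4, which lay above Gata4-LSEC-KO replicate 4. The difference was 0.77 ± 0.22 with an adjusted p of 0.118. Cdk1, the mitotic kinase itself, differed by 0.68 with an adjusted p of 0.352, and by 0.37 without control replicate 1, where it was 3.34 against 4.69 to 5.16 in the other control arrays. Foxm1, the transcription factor of G2/M genes, differed by 0.47, and the Aurora kinase genes Aurka and Aurkb by 0.30 and 0.35.

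Among the 12 genes of the mitotic apparatus, 11 lay above 0 with a median of 0.53. Limma called 0 of them at an adjusted p under 0.05, and 9 at an unadjusted p under 0.05. Top2a, the topoisomerase that untangles sister chromatids, had 5.29, 5.55, 6.24, 5.09 and 5.59 in Gata4-LSEC-KO arrays, against 4.19, 5.02, 4.55, 4.88 and 4.85 in control arrays. The groups did not overlap, and replicate 3 was the highest of the Gata4-LSEC-KO arrays. The difference was 0.86 ± 0.22, or 1.81-fold, with an adjusted p of 0.0764 in limma. Mki67 encodes Ki-67, the antigen used to mark cycling cells. It had 5.64, 5.70, 6.47, 5.48 and 6.24 in Gata4-LSEC-KO arrays, against 5.23, 5.44, 5.12, 5.36 and 5.03 in control arrays. Its groups did not overlap either, but Gata4-LSEC-KO replicate 4 exceeded control replicate 2 by little. The difference was 0.67 ± 0.19, or 1.59-fold, with an adjusted p of 0.106. Over the 14 other ways of fitting that are given in the closing section, the adjusted p of Top2a ran between 0.0512 and 0.170 and that of Mki67 between 0.0728 and 0.239.

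Nusap1, a microtubule-binding protein of the spindle, had 3.65, 3.95, 3.84, 3.54 and 3.78 in Gata4-LSEC-KO arrays, against 3.10, 3.68, 2.71, 3.15 and 3.25 in control arrays. Control replicate 2 lay above Gata4-LSEC-KO replicates 1 and 4, and the difference was 0.58 ± 0.16 with an adjusted p of 0.109 in limma. The spindle genes Tpx2 and Kif11 differed by 0.66 and 0.62, the kinetochore genes Cenpe and Cenpf by 0.64 and 0.38, and the checkpoint kinase gene Bub1 by 0.44. Ube2c and Cdc20, which serve the anaphase-promoting complex, differed by 0.49 and 0.35. The checkpoint gene Bub1b and Birc5, the gene of survivin, had differences near 0, at -0.04 and 0.11. Of the 12 genes 5 averaged below the array median of 3.71: Bub1, Birc5, Cenpe, Cenpf and Nusap1. The share of these values that is background was not measured.

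**Figure D3:**
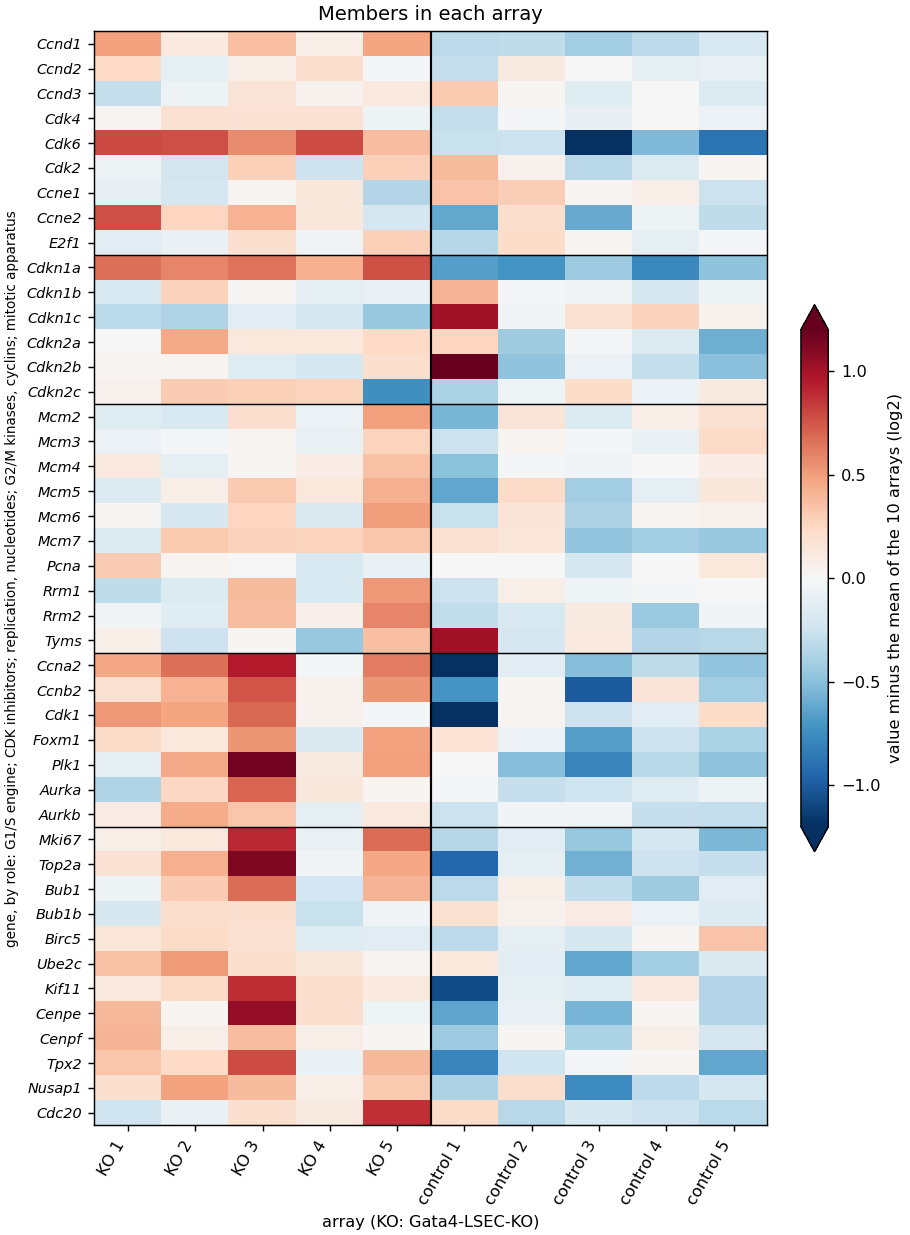
Value of each of the 44 members in each array minus the mean of the 10 arrays for that gene (log2, colour), with the 5 Gata4-LSEC-KO arrays left of the 5 control arrays and genes grouped by role (lines). Cdkn1a, Cdk6 and Ccnd1 keep 1 sign within each group of arrays, whereas the mitotic genes are deepest in Gata4-LSEC-KO replicate 3 and pale in replicate 4. Control replicate 1 stands apart from the other control arrays in several rows.

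Many mitotic genes were highest or lowest in the same pools. Of the 19 mitotic genes, Gata4-LSEC-KO replicate 3 was the highest of its group in 12 and replicate 4 the lowest in 11. Control replicate 1 was the lowest control array in 8 of the 19 and the highest in 6. The mean of the 19 genes was 4.47, 4.62, 4.96, 4.33 and 4.61 in Gata4-LSEC-KO arrays, against 3.89, 4.23, 3.93, 4.17 and 4.07 in control arrays. The 2 groups of means did not overlap, with 4.60 ± 0.24 in Gata4-LSEC-KO arrays and 4.06 ± 0.15 in control arrays (SD, n = 5 each). Without control replicate 1, the control mean was 4.10 ± 0.13 (n = 4). No p is given for this mean, since the genes were chosen with earlier results of these data known.

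Counts without adjustment went the same way. At an unadjusted p under 0.05, 21 of the 44 members were higher, beside 7.07% of all genes, and 1 was lower, Cdkn1c, beside 6.57% of all genes. Of the 21, 15 were mitotic genes and 3 belonged to the G1/S engine. In 6 members every Gata4-LSEC-KO array lay above every control array, beside 2.55% of all genes, and these were Ccnd1, Cdk6, Cdkn1a, Ccna2, Top2a and Mki67. The reverse held for 1 member, Cdkn1c, beside 2.37% of all genes. Members share regulation and cells, so that they are not independent of each other. The limma p-values set each difference against the spread between pools, and the spread between single mice within a pool cannot be seen.

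The calls differed in how far they rested on single arrays. Cdkn1a and Cdk6 passed the adjusted threshold in all 14 alternative fits, with adjusted p up to 0.00612 and 0.0219. Ccnd1 passed in 13, and Ccna2 passed in 6. Leaving out control replicate 1 raised the number of members called to 6 by adding Plk1 and Ube2c, of which Ube2c had an adjusted p of 0.0462. In the same fit the share of all genes called rose too, to 2.98% from 2.14% with all arrays. Leaving out control replicate 2 added Nusap1, with an adjusted p of 0.0383, where 1.51% of all genes were called. No member was called lower in any of these fits.

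**Figure D4:**
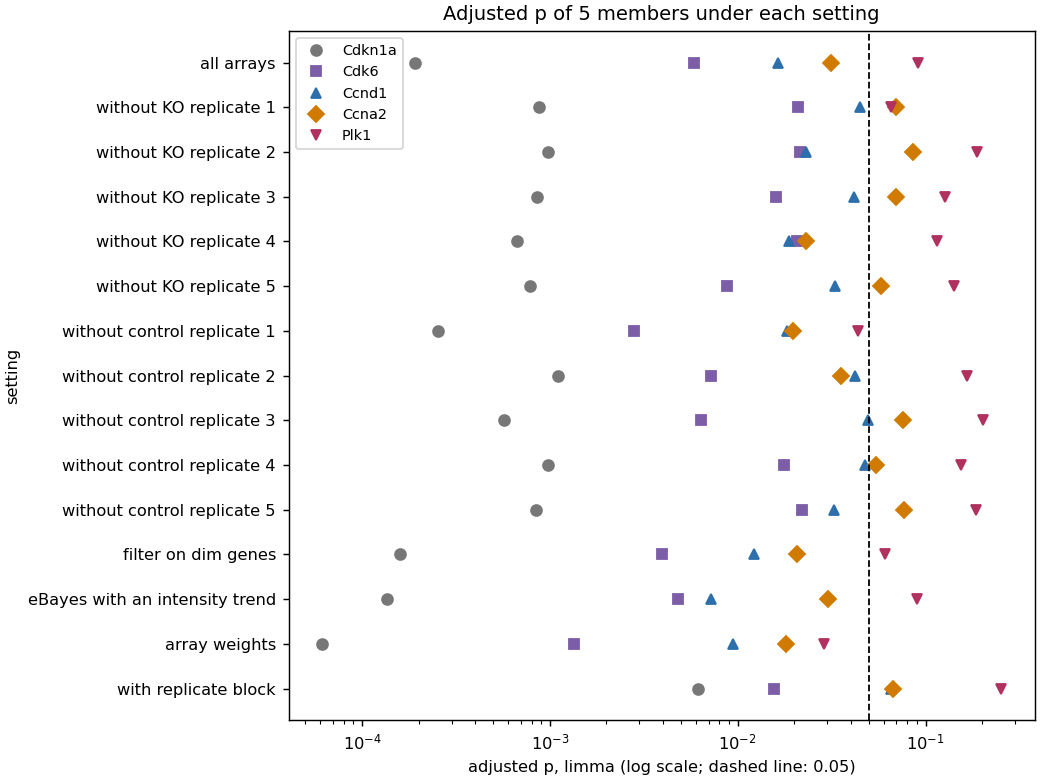
Adjusted p from limma (horizontal axis, log scale, with the threshold of 0.05 dashed) of 5 members with all arrays and under each of 14 alternative fits (rows). Cdkn1a and Cdk6 stay left of the line throughout, Ccna2 falls on both sides, and Plk1 is left of it only without control replicate 1 and with array weights.

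Other genes of the same pathways were counted from 3 longer lists, with 127 genes measured of 129 listed. Limma called 1 of them (0.787%), which was lower, beside 0.846% of all genes called lower and 2.14% called in either direction. Among 23 other G1/S genes, 0 were called, and the median difference was 0.18. At an unadjusted p under 0.05, 3 were higher and 0 lower, beside 7.07% and 6.57% of all genes. Rb1, the gene of the retinoblastoma protein, had 7.19, 7.06, 7.48, 7.33 and 7.47 in Gata4-LSEC-KO arrays, against 6.04, 6.94, 6.97, 6.64 and 6.77 in control arrays. The groups did not overlap, and the difference was 0.63 ± 0.17 with an adjusted p of 0.0997 in limma. Btg2, an antiproliferative gene, differed by 0.47 ± 0.18 with an adjusted p of 0.248 and overlapping groups.

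Among 42 other replication genes, 0 were called in limma, while 2 were higher and 7 lower at an unadjusted p under 0.05, beside 7.07% and 6.57% of all genes, and the median was -0.02. Rfc1, the large subunit of the clamp loader that places PCNA on DNA, had 5.62, 5.96, 6.08, 5.90 and 5.71 in Gata4-LSEC-KO arrays, against 6.43, 6.24, 6.33, 6.29 and 6.23 in control arrays. All Gata4-LSEC-KO values lay below all control values, with a difference of -0.45 ± 0.11 and an adjusted p of 0.0633. Dut, the dUTPase that keeps uracil out of DNA, also had groups apart, with a difference of -0.41 ± 0.12 and an adjusted p of 0.114. In 4 of the 42 genes the Gata4-LSEC-KO arrays all lay below the control arrays, beside 2.37% of all genes, and in 0 all above, beside 2.55%.

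The 62 other mitotic genes lay mostly above 0, as 51 did (82.3%), beside 44.8% of all genes, with a median of 0.22. At an unadjusted p under 0.05, 18 were higher and 1 lower, beside 7.07% and 6.57% of all genes. None was called higher in limma, and 1 was called lower. That gene was Cenpa, which encodes the histone H3 variant of centromeres. It had 5.61, 5.88, 5.60, 5.61 and 5.65 in Gata4-LSEC-KO arrays, against 6.27, 6.26, 5.97, 6.12 and 6.25 in control arrays. The groups did not overlap, and Cenpa fell by 0.50 ± 0.10 on the log2 scale, with an adjusted p of 0.0294. The call was lost in 8 of the 14 alternative fits, with adjusted p up to 0.0951. These included leaving out any 1 of Gata4-LSEC-KO replicates 1, 3, 4 and 5 or of control replicates 2, 4 and 5. The mean of the 62 genes ran between 3.88 and 4.21 in Gata4-LSEC-KO arrays and between 3.63 and 3.88 in control arrays.

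Myc, a transcription factor upstream of D-type cyclins and CDKs, had 7.57, 7.07, 6.72, 6.86 and 6.73 in Gata4-LSEC-KO arrays, against 5.01, 5.05, 5.65, 5.29 and 5.45 in control arrays. It rose by 1.70 ± 0.18, or 3.25-fold, with an adjusted p of 0.000732 in limma. The targeted gene itself, Gata4, had 8.35 to 8.90 in Gata4-LSEC-KO arrays and 8.53 to 8.90 in control arrays. Its difference was -0.12 ± 0.13 with an adjusted p of 0.742. Where its probes lie against the deleted part is not stated in the labels, so this value does not check them.

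Some markers of other cells also differed between the groups in these bead-selected pools. More RNA per cell and more cells of a kind cannot be told apart in bulk samples, nor can less RNA per cell and fewer cells. Of 10 neutrophil and monocyte markers 7 were called higher in Gata4-LSEC-KO arrays, and their mean was 4.50, 5.92, 4.87, 5.46 and 4.85, against 3.07, 3.47, 3.77, 3.40 and 3.48 in control arrays. Gata4-LSEC-KO replicate 4 had the second highest of these means and the lowest mean of the mitotic members in its group. Replicate 3 had the highest mitotic mean with a middle marker mean. By contrast, Gata4-LSEC-KO replicate 2 had the highest marker mean and the second highest mitotic mean (4.62). Control replicate 1 was the lowest array in both, with a mitotic mean of 3.89. Of 10 markers of granulocyte precursors, which divide in the bone marrow, Ltf and Ngp were called higher, and 5 lay above 0 and 5 below. Camp also had groups apart, with a difference of 1.08 and an adjusted p of 0.187 in limma. Chil3, Fcnb and Cebpe differed by 0.41, -0.03 and -0.10. The primary granule genes Mpo, Elane and Ctsg averaged 3.22, 2.24 and 2.82 in Gata4-LSEC-KO arrays, against 3.19, 2.41 and 2.89 in control arrays, all below the array median of 3.71. Prtn3, the remaining one, averaged 3.33 in Gata4-LSEC-KO arrays and 3.89 in control arrays. The list as a whole averaged between 3.20 and 4.03 in Gata4-LSEC-KO arrays and between 2.87 and 3.30 in control arrays. The part of these cells in the values of the members was not tested.

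**Figure D5:**
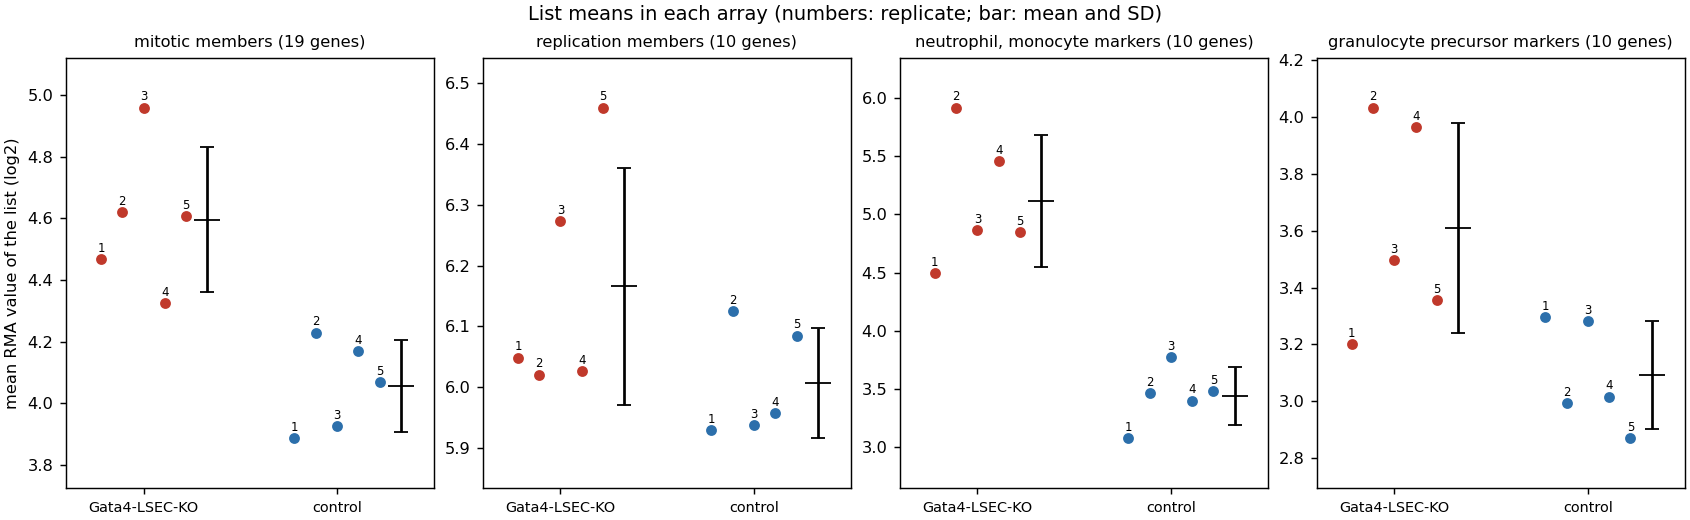
Mean RMA value (log2, vertical axis) of the 19 mitotic members, the 10 replication members, 10 neutrophil and monocyte markers and 10 granulocyte precursor markers in each array, with Gata4-LSEC-KO arrays left of control arrays in each panel, replicates numbered, and bars for mean and SD (n = 5). Axes differ between panels and do not start at 0. The mitotic and the neutrophil means both separate the groups. Replicate 3 is the highest Gata4-LSEC-KO array in the first and replicate 2 in the second, and control replicate 1 is the lowest array in both.

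Among the other lists, the means of the cholangiocyte and of the B and plasma cell markers also separated the groups. The mean of 5 cholangiocyte markers was 4.41 to 6.29 in Gata4-LSEC-KO arrays and 3.63 to 4.33 in control arrays, with 0 called in limma and 4 higher at an unadjusted p under 0.05. Hepatocyte markers averaged 6.56 to 8.11 in Gata4-LSEC-KO arrays, with replicates 1 and 4 high, and 6.65 to 7.05 in control arrays. Of these 9 markers Tat was called higher and Cyp2e1 lower. Markers of stellate cells and fibroblasts averaged 7.01, 8.42, 7.73, 6.68 and 7.43 in Gata4-LSEC-KO arrays, against 5.62, 7.03, 6.96, 7.39 and 7.32 in control arrays, with 0 called in limma and 3 higher at an unadjusted p under 0.05. These means overlapped between groups, and their order within a group was in part that of the mitotic means. Replicates 2 and 3 were the highest and replicate 4 the lowest of the Gata4-LSEC-KO arrays in both. Replicate 2 was above replicate 3 in these markers and below it in the mitotic mean. Among control arrays, replicates 1 and 3 were the lowest in both. The highest control array was replicate 4 in these markers and replicate 2 (4.23) in the mitotic mean. Kupffer cell markers averaged 6.93 to 7.98 in Gata4-LSEC-KO arrays and 5.40 to 8.16 in control arrays, with 0 called and 0 at an unadjusted p under 0.05. The 7 B and plasma cell markers averaged 4.21 to 4.59 in Gata4-LSEC-KO arrays and 3.93 to 4.10 in control arrays. Jchain among them was called higher, with a difference of 1.396, and was the only one whose groups did not overlap. In the other 6 the groups overlapped, with differences from -0.044 (Mzb1) to 0.402 (Cd79a) and 0 called. Whether the list mean separates the groups without Jchain was not tested. T and NK cell markers averaged 3.50 to 3.70 in Gata4-LSEC-KO arrays and 3.21 to 3.79 in control arrays. Erythroid precursor markers averaged 3.27 to 3.69 in Gata4-LSEC-KO arrays and 3.43 to 3.57 in control arrays. The T and NK cell and the erythroid lists overlapped between groups, with 0 called in limma and 1 and 0 genes at an unadjusted p under 0.05. The part of these cells in the members' values was not tested either. The 12 endothelial markers averaged 10.49 to 10.92 in Gata4-LSEC-KO arrays and 10.63 to 10.91 in control arrays, far above the array median in every pool. Of these, Clec4g was called lower and Mcam higher. At an unadjusted p under 0.05, 5 of the 12 were lower, beside 6.57% of all genes, and 1 was higher, beside 7.07%. Mcam encodes the CD146 on which the cells were selected. Control replicate 1 correlated with the other arrays at 0.920 to 0.944 over all genes, while the other 9 correlated among themselves at 0.969 to 0.988.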

How the data were processed

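The authors' deposited values are log2 intensities made with RMA from biotin-labelled RNA on 1-colour Affymetrix arrays, per the labels' protocols and the submitters' processing notes (no version is named there). Each array's median was 3.71 and the sorted values differed between arrays by at most 0.00186, so no further normalization was applied. RMA pulls the values of dim probe sets together, so that their folds understate RNA ratios. The array design, probe positions, detection calls and batches are not stated in the labels. Of 25428 probe sets, 723 were unnamed here and left out, 1 second probe set of a symbol was dropped for the brighter one, and 24704 genes were tested. Gata4-LSEC-KO and control arrays, 5 each, were compared with limma 3.58.1 in R 4.3.3 (lmFit, eBayes, no covariates), two-sided, with Benjamini-Hochberg adjustment over all genes and a threshold of 0.05. The number of arrays limits the precision. Members and lists were chosen with earlier results of these data known. Values per array are given for members past the threshold, members whose groups do not overlap, the 3 smallest p-values of each role group, and Mki67, Ccnd1, Cdkn1a and Pcna. From each of 3 longer pathway lists up to 4 genes past the threshold, or otherwise the 2 with the smallest p, are named. Gata4 and Myc are given once. The alternatives were leaving out each array, a filter on dim genes, an intensity trend, array weights and the replicate number as a block. The labels number the replicates 1 to 5 in both groups, but the correlations of same-numbered deviations ran between -0.165 and 0.0389, so the numbers were not taken to pair the arrays. Promoter windows came from RefSeq, assembly GRCm38.p6.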

Additional observations from a re-analysis of the deposited data

Results flagged for a closer look

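In 8 of 88 groups of 5 values (44 members in 2 groups, 9.09%), 1 array stood so far from the other 4 that its gap to the nearest exceeded 0.71 of the whole range, Dixon's 95% critical value. Chance flags about 1 in 20 such groups. Of the 8, 5 were in control replicate 1, the array that also correlated least with the others. There Cdkn1b was 7.24 (others 6.64 to 6.81), Cdkn2b was 6.84 (others 4.90 to 5.34) and Cdc20 was 5.51 (others 4.96 to 5.10), each above the other control arrays. In the same array Mcm4 was 5.66 (others 6.11 to 6.24) and Cdk1 was 3.34 (others 4.69 to 5.16), below them. Among Gata4-LSEC-KO arrays, Kif11 was high in replicate 3 at 4.72 (others 3.95 to 4.07), Cdkn2c low in replicate 5 at 4.30 (others 5.08 to 5.34), and Mcm7 low in replicate 1 at 5.13 (others 5.57 to 5.62). No adjusted call among the members involved these 8 genes.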

How the results depend on the processing

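Of 44 members, 33 kept their sign in all 14 alternative fits (31 higher, 2 lower) and 11 changed it in at least 1. Genes called over the whole table, 529 with all arrays, numbered 287 to 737 when 1 array was left out, 1070 with array weights and 275 with the replicate number as a block. Members called, 4 with all arrays, were 2 under the replicate block, where Ccnd1 and Ccna2 had adjusted p of 0.0658 and 0.0674. No array correlated best with the array of its own number. Members whose groups do not overlap numbered 7 with all arrays and 7 to 11 when 1 array was left out. This count could not fall, because leaving out an array cannot make separate groups overlap, so it is no check of the result. Other pathway genes called numbered 0 to 1 when 1 array was left out, 0 under the block, 2 with the filter on dim genes and 4 with array weights. The median of the CDK inhibitors was -0.022 to 0.187 when 1 array was left out, and it was below 0 without Gata4-LSEC-KO replicate 2 (-0.022) and without control replicate 4 (-0.014). The median of the G2/M genes was 0.48 with array weights, no longer above that of the mitotic apparatus genes (0.48). Those weights turned the sign of Ccnd3 (0.033), Cdkn1b (0.049), Cdkn2b (0.247), Mcm2 (-0.047), Mcm3 (-0.033) and Tyms (0.065). When 1 array was left out, the difference ran from -0.102 to 0.017 for Bub1b, -0.054 to 0.065 for Ccnd3, -0.065 to 0.113 for Cdk2, -0.113 to 0.058 for Cdkn1b, -0.167 to 0.317 for Cdkn2b, -0.016 to 0.264 for Cdkn2c, -0.0046 to 0.178 for Mcm2, -0.018 to 0.104 for Mcm3, -0.047 to 0.075 for Pcna, -0.013 to 0.192 for Rrm1 and -0.203 to 0.141 for Tyms. None of these 11 genes was called in any fit. The cause of these changes was not tested, beyond fewer arrays in the fits that leave 1 out. The filter removed 7 dim members, which have no value there. Without detection calls, the signal of dim members over background was not measured.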
